A study of Mus musculus with 6 samples.

Results

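The Vmn1r genes are the vomeronasal type 1 receptor family of the mouse, and 125 of the 20848 genes named on the array belong to it. They were chosen by their symbol in the platform's probe table, which had to start with Vmn1r, pseudogenes included, and by probe sets that carry 1 symbol only. The family was picked with earlier results of these arrays in view, namely its low signals and the difference of 1 member, Vmn1r-ps79, so its levels and its differences between the groups are given as a description. Each array measured RNA from EpH4 cells, a mouse mammary epithelial line that forms polarised monolayers, and no primary tissue or second line was used. One group of 3 samples received TGF-β3 at 1 ng/ml in serum-free medium for 24 hours, and the other 3 received vehicle in the same medium for the same time. Both groups had first been confluent for 7 days to form tight junctions. Each sample pooled the RNA of 3 wells and was hybridised to 1 array, and the study names 3 experiments. All values are log2 signals, and a difference is always TGF-β3 minus vehicle.

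Vomeronasal type 1 receptors are G protein-coupled receptors of sensory neurons in the vomeronasal organ, where they detect pheromones and other small molecules. Each such neuron mainly uses 1 receptor gene, couples it to the G protein subunit encoded by Gnai2 and depends on the channel encoded by Trpc2. The genes lie in clusters of recent duplicates, many of them pseudogenes, and they are not known for a role in mammary epithelium. Such genes can describe the low end of the signal scale on each array, for the probe sets that read them.

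The 125 genes were 123 annotated as protein-coding and 2 annotated as pseudogenes, Vmn1r-ps79 and Vmn1r190-ps, and they lie on chromosomes 1, 6, 7, 13 and 17, with 1, 41, 38, 31 and 14 genes. Most were read by little sequence: 101 had 1 probe set, 23 had 2 to 5 and Vmn1r90 had 13, against a median of 8 over all genes. A further 48 probe sets name Vmn1r genes together with other genes, up to 16 symbols on 1 probe set. These shared probe sets name 82 different Vmn1r symbols, of which 61 appear on no probe set of their own and are therefore not among the 125 genes.

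The sequence around the gene starts shows how closely some of these genes resemble each other. RefSeq windows (build GRCm38.p6) of 300 bases, 250 before and 50 after the start, were found for 109 of the 125 genes. In 87 of the 109 windows (79.8%) the gene began with ATG, against 5.83% of all 32851 windows, so that most of these gene models begin at their coding sequence and the window is not known to hold the transcription start. The median GC content was 35.3% in the Vmn1r windows and 52.7% in all windows. The last 110 bases of the window, with the ATG at the gene start in capitals, are shown for the 5 genes of highest mean signal that have a window, for Vmn1r174, one of the 6 largest decreases of the mean, and for Vmn1r49, a receptor for the urinary ketone 2-heptanone.
Vmn1r213: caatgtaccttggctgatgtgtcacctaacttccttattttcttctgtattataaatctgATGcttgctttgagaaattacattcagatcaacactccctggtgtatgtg
Vmn1r191: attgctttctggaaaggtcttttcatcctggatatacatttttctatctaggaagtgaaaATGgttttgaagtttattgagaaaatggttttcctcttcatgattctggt
Vmn1r193: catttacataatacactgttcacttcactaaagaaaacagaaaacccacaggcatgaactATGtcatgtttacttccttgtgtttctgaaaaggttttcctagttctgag
Vmn1r86: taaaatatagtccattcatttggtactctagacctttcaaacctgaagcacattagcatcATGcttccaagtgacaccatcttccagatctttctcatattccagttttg
Vmn1r90: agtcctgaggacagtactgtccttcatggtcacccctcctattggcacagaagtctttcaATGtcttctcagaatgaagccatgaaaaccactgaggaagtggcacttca
Vmn1r174: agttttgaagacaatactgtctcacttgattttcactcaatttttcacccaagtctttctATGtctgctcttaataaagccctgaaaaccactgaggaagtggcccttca
Vmn1r49: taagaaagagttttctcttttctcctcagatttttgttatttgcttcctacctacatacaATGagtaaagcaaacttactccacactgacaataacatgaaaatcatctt
These stretches lie at chr13:23011189-23011298 (plus strand), chr13:22179533-22179642 (minus), chr13:22219771-22219880 (minus), chr7:13102898-13103007 (minus), chr7:14562122-14562231 (minus), chr7:23753851-23753960 (plus) and chr6:90072969-90073078 (minus). Vmn1r90 and Vmn1r174 share the run tgaaaaccactgaggaagtggc of 22 bases early in their coding sequence, and no other pair among the 7 shares more than 9 bases in a row. Over the whole windows, 47 of 5886 pairs (0.799%), which involve 53 of the 109 genes, share a run of at least 25 bases. How far the array's probes are shared in the same way was not tested, and values of near-identical members are uncertain for that reason.

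The same windows were searched on both strands for the letters of 2 motifs. The SMAD palindrome GTCTAGAC, a site of the factors downstream of TGF-β receptors, was in 0 of the 109 Vmn1r windows and in 0.213% of all windows. The homeodomain core TAATTA was in 12 of the 109 (11%) and in 5.29% of all windows. TAATTA holds no G or C, and the median GC content was 35.3% in the Vmn1r windows against 52.7% in all. No background of like GC content was searched, so whether either motif is more or less common than base content gives was not tested.

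Most Vmn1r signals lay near the bottom of the scale on every array. The median over the 125 genes was 3.94, 4.09 and 4.01 on TGF-β3 arrays 1, 2 and 3, and 3.99, 4.12 and 4.23 on vehicle arrays 1, 2 and 3, where the median of all genes was between 6.04 and 6.10 on each array. The groups overlapped in this median, and the vehicle 3 array was the highest. On each array the Vmn1r median was under the 5th percentile of all genes, which was 4.09 on TGF-β3 1 and 4.27 on vehicle 3. The 4 other sensory receptor families described below had higher medians on every array, from 4.16 to 4.30 on TGF-β3 1 and from 4.43 to 4.61 on vehicle 3. The Vmn1r level is thus not the level of all genes of low signal. By their mean over the 6 arrays, all genes were put into 5 bins of near-equal size, and 111 of the 125 members fell into the lowest bin and 0 into the 2 highest. Signals of different genes come from different probes, so these ranks describe probe sets and are not amounts of RNA. No detection calls were used here, so a low signal does not show that a transcript is absent. In such bulk samples, fewer cells with a transcript and less RNA per cell cannot be told apart.

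**Figure D1:**
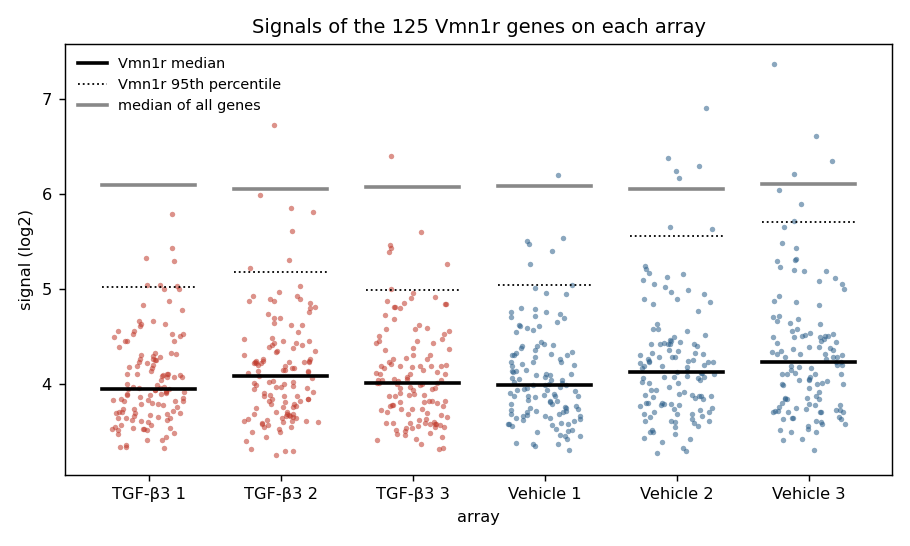
Log2 signal of each of the 125 Vmn1r genes (points, spread sideways for legibility) on the 3 TGF-β3 arrays (red) and the 3 vehicle arrays (blue), with the Vmn1r median (thick black line), the Vmn1r 95th percentile (dotted) and the median of all genes (grey). The Vmn1r medians run from 3.94 to 4.23, and the 95th percentile is highest on vehicle arrays 2 and 3, at 5.55 and 5.70.

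The bottom edge of the family hardly moved between arrays, while its upper edge did. The lowest Vmn1r signal was 3.33, 3.25 and 3.31 on TGF-β3 arrays 1, 2 and 3 and 3.30, 3.27 and 3.30 on vehicle arrays 1, 2 and 3, and it was always that of Vmn1r170 or Vmn1r197. The 95th percentile of the family was 5.02, 5.18 and 4.99 on the TGF-β3 arrays and 5.04, 5.55 and 5.70 on the vehicle arrays. The upper edge was thus raised on vehicle arrays 2 and 3 and not on vehicle array 1. Of all genes, 25.6%, 29.4% and 24.1% lay under this 95th percentile on the TGF-β3 arrays, and 25.4%, 39.6% and 40.4% on the vehicle arrays. A limit drawn at this percentile would thus set aside 24.1% to 40.4% of the genes, depending on the array.

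Vehicle array 3 gave the highest of the 6 signals in 82 of the 125 genes and the lowest in 0. TGF-β3 array 1 gave the lowest in 56 genes and the highest in 4. The whole signal distribution of vehicle array 3 was also narrower, with an SD over all genes of 1.58, against 1.68 to 1.74 on the other 5 arrays. The 4170 genes of the lowest bin had a median of 4.60 on that array, against 4.40 to 4.49 on the others, so that genes outside the family were also higher there at the low end of the scale.

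The darkest members showed what a near-constant signal looks like on these arrays. Vmn1r170 had 3.34, 3.25 and 3.31 in TGF-β3 samples and 3.35, 3.27 and 3.30 in vehicle samples. Vmn1r197 had 3.33, 3.29 and 3.33 in TGF-β3 samples and 3.30, 3.30 and 3.41 in vehicle samples. Their groups overlapped, and the differences were -0.01 and -0.02 (SE 0.08 each). Vmn1r23, Vmn1r35, Vmn1r22 and Vmn1r17, the other members of lowest mean, had differences of 0.00, -0.10, 0.00 and -0.09. Among the 25 members of lowest mean the median pooled SD within groups was 0.06, and among the 25 of highest mean it was 0.21.

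The 3 receptors named for their known ligands had signals in the lower part of the scale. Vmn1r49 had 3.55, 3.68 and 3.63 in TGF-β3 samples and 3.66, 3.78 and 3.70 in vehicle samples, a difference of -0.10 (SE 0.08) with overlap of the groups. Vmn1r85, of a subfamily that responds to sulfated steroids, had 4.08, 4.35 and 4.13 in TGF-β3 samples and 4.06, 4.23 and 4.50 in vehicle samples, with a difference of -0.08 (SE 0.12). Vmn1r89, of the same subfamily, had 4.53, 4.90 and 4.73 in TGF-β3 samples and 4.65, 5.20 and 5.43 in vehicle samples, with a difference of -0.38 (SE 0.18) and overlapping groups. In all 3 genes the arrays numbered 1 were the lowest of their groups.

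A few members were well above the rest of the family. Vmn1r213 had the highest mean and exceeded the median of all genes on each array except TGF-β3 1, with 5.78, 6.73 and 6.39 in TGF-β3 samples and 6.20, 6.90 and 7.37 in vehicle samples. The groups overlapped, and the difference was -0.52 (SE 0.30). Vmn1r191, from the same cluster on chromosome 13, had 5.03, 5.98 and 5.60 in TGF-β3 samples and 5.47, 6.17 and 6.61 in vehicle samples (difference -0.55, SE 0.30). Vmn1r193 had 5.32, 5.81 and 5.46 in TGF-β3 samples and 5.51, 6.29 and 6.34 in vehicle samples (difference -0.51, SE 0.22). In these 3 genes both arrays numbered 1 were the lowest of their groups, and the difference was negative in 3 of 3 same-numbered pairs.

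Other bright members lie on chromosome 7. Vmn1r86 had 5.29, 5.85 and 5.39 in TGF-β3 samples and 5.40, 6.24 and 5.90 in vehicle samples (difference -0.33, SE 0.21). Vmn1r90 had 5.43, 5.61 and 5.43 in TGF-β3 samples and 5.53, 5.65 and 6.04 in vehicle samples (difference -0.25, SE 0.13). Vmn1r90 is the member with 13 probe sets, whose mean signals ran from 3.31 to 9.19 and whose differences ran from -0.70 to 0.24, negative in 11 of 13. Its gene value is therefore an average over probe sets that differ widely. In the 6 genes of highest mean, Vmn1r-ps79 included, vehicle 1 was the lowest vehicle array in 6 of 6 and TGF-β3 1 the lowest of all arrays in 5 of 6.

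**Figure D2:**
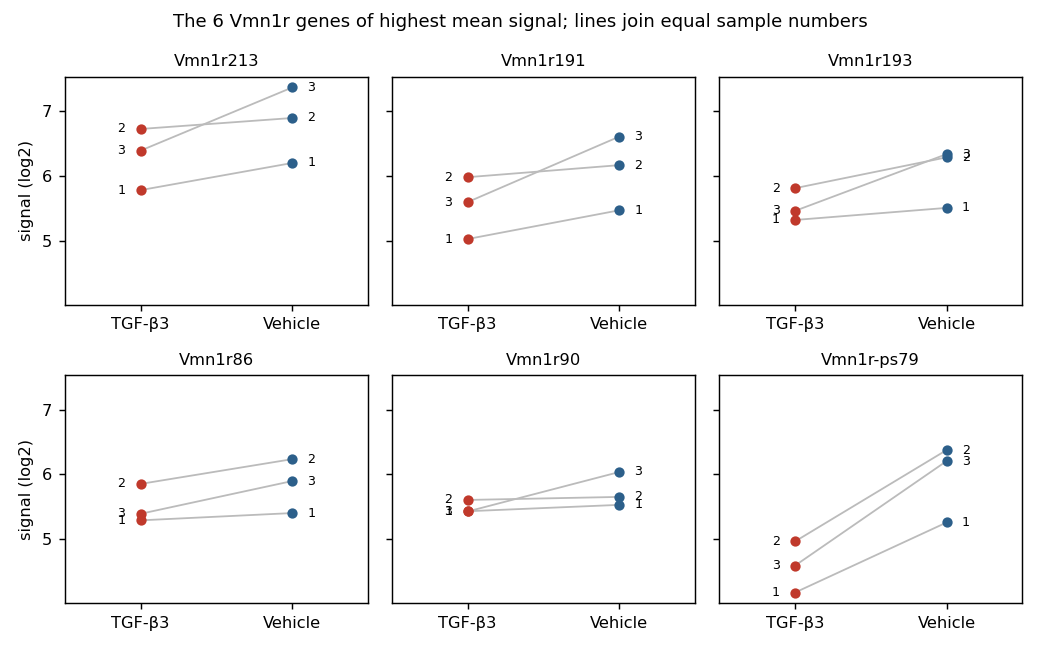
Log2 signals of the 6 Vmn1r genes of highest mean signal, 1 panel each, in TGF-β3 samples (red, left) and vehicle samples (blue, right), with lines that join arrays of equal sample number. Every line ends higher on the vehicle side, the groups overlap in each gene except Vmn1r-ps79, and vehicle 1 is the lowest vehicle array in all 6 panels.

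The genes next to these members on the reference varied in both signal and difference. Vmn1r213 lies between Vmn1r212 and Vmn1r214, whose mean signals were 4.13 and 3.60 and whose differences were -0.05 and -0.06. Vmn1r192, between Vmn1r191 and Vmn1r193, had a mean of 4.48 and a difference of -0.14, and Vmn1r194 on the other side of Vmn1r193 had 5.03 and -0.23. Vmn1r85 and Vmn1r87, on either side of Vmn1r86, had means of 4.22 and 3.70 and differences of -0.08 and -0.04, and Vmn1r89, the next measured gene after Vmn1r87, had 4.90 and -0.38. The nearest measured genes on either side of Vmn1r90 belong to other families: Sult2a8 on 1 side had a mean of 3.82 and a difference of -0.02, and Obox7 and Obox4-ps18 on the other had means of 4.05 and 7.12 and differences of -0.24 and -0.74. Over the Vmn1r members of each chromosome the median difference was -0.08 on chromosome 6, -0.11 on chromosome 7, -0.08 on chromosome 13 and -0.09 on chromosome 17.

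Vmn1r-ps79, annotated as a transcribed pseudogene on chromosome 7, stood apart from the other members. It had 4.17, 4.96 and 4.59 in TGF-β3 samples and 5.26, 6.38 and 6.21 in vehicle samples. All 3 TGF-β3 values were below all 3 vehicle values, and within each group the array numbered 1 was the lowest and the array numbered 2 the highest. The means were 4.58 ± 0.39 in TGF-β3 and 5.95 ± 0.60 in vehicle (SD, n = 3 each), a difference of -1.37 (95% interval -2.01 to -0.73). The TGF-β3 values were all under the Vmn1r 95th percentile of their arrays, which was 5.02, 5.18 and 4.99. By size this was the largest difference of the 20848 genes, where the next was 0.96. In the same-numbered pairs it was -1.08, -1.41 and -1.62. The gene was singled out for this difference, which is given as a description.

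The signal of Vmn1r-ps79 rests on 1 probe set. Another 11 probe sets name it together with other genes. Their median signal was 4.57, 5.05 and 4.62 on the TGF-β3 arrays and 4.73, 5.22 and 5.52 on the vehicle arrays. Their differences had a median of -0.41, ran from -0.51 to 0.08 and were negative in 10 of 11. All of these differences were smaller in size than that of the gene's own probe set. Over the 48 shared probe sets that name any Vmn1r gene the median difference was -0.36, with 45 of 48 negative and a range from -0.68 to 0.09.

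Among genes on the array, those that follow Vmn1r-ps79 on the reference are Gm5891 and Gm4567, with mean signals of 5.46 and 4.61 and differences of -0.47 and -0.57. On its other side, Nlrp9b and Ceacam20 had differences of -0.12 and -0.14. The 5 genes whose 6 values correlated best with those of Vmn1r-ps79 were Ramp2, Mgat4d, Serpina12, Npy6r and Olfr1305, with Pearson r from 0.99 to 1.00 over 6 arrays. Their differences were much smaller, from -0.08 to -0.21, and all of these genes were read on the same arrays. Ramp2, for example, had 4.80, 4.93 and 4.87 in TGF-β3 samples and 4.97, 5.13 and 5.10 in vehicle samples. The 5 genes closest to the Vmn1r median of each array were Vmn1r216, Gm10409, Gm9443, Olfr1239 and Kctd19 (r from 0.996 to 0.999), with differences from -0.15 to -0.52. Only Vmn1r216 of these is a member, with 3.76, 4.02 and 3.88 in TGF-β3 samples and 3.87, 4.09 and 4.26 in vehicle samples. As a member it is itself among the genes from which that median was taken.

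Few members were higher in TGF-β3, and by little. The largest was Vmn1r45, with 5.00, 4.87 and 4.81 in TGF-β3 samples and 4.79, 4.63 and 4.93 in vehicle samples, a difference of 0.11 (SE 0.10). Vmn1r201 had 3.70, 3.60 and 3.59 in TGF-β3 samples and 3.49, 3.49 and 3.58 in vehicle samples, also 0.11 (SE 0.08), and was the only member whose TGF-β3 values were all above its vehicle values. Vmn1r172, Vmn1r222, Vmn1r8 and Vmn1r47 followed, at 0.09, 0.04, 0.04 and 0.03. Among members whose same-numbered pairs differed in sign, the widest spread within groups was in Vmn1r63. It had 5.04, 4.47 and 4.92 in TGF-β3 samples and 4.70, 4.42 and 5.72 in vehicle samples.

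The differences between the groups were not spread evenly around 0. The TGF-β3 mean was lower in 114 of the 125 members (91.2%), against 47.2% of all genes, and the median difference was -0.09, against 0.01 over all genes. In 15 members all TGF-β3 values lay below all vehicle values (6.05% of all genes), and in 1 they lay above (6.84% of all genes). Of the 4170 genes in the lowest signal bin, where most members fell, 528 lay below in this way and 25 above. All 3 same-numbered pairs were lower in 59 members (47.2%), against 18% of all genes and 34.6% of the genes in the lowest bin. The size was small: 113 members differed by less than 0.25, and 1 member differed by over 1. These counts were made on the contrast with which the family was picked.

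No member passed in limma at an adjusted p under 0.05 (0 of 125, against 0 of all 20848 genes, or 0%). At an unadjusted p under 0.05 there were 9 of 125 members, 0 higher and 9 lower, against 5.16% of all genes (2.13% lower, 3.03% higher). The 9 were Vmn1r-ps79, Vmn1r78, Vmn1r82, Vmn1r194, Vmn1r174, Vmn1r193, Vmn1r44, Vmn1r50 and Vmn1r183, with differences from -1.37 to -0.22. Vmn1r174 had 4.83, 5.22 and 4.81 in TGF-β3 samples and 4.94, 5.63 and 5.66 in vehicle samples, and its groups overlapped. Without TGF-β3 array 1, 2 or 3 the count was 1, 12 or 1 (0.8%, 9.6% and 0.8% of members, against 3.05%, 4.23% and 1.39% of all genes). Without vehicle array 1, 2 or 3 it was 27, 2 or 2 (21.6%, 1.6% and 1.6% of members, against 18.2%, 3.92% and 3.05% of all genes). The count depended on single arrays on both sides, and the share of all genes did so too.

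With a replicate block on the number in the titles, Vmn1r-ps79 passed in limma (1 of 125 members, adjusted p = 0.008, against 0.00959% of all genes), the earlier result for which the family was picked. The block gave 19 members with an unadjusted p under 0.05, all lower, against 12.2% of all genes (5.34% lower). After quantile normalization, which gives the arrays 1 common distribution, no member passed with the block (0 of 125, against 0% of all genes, with 14 members at an unadjusted p under 0.05, 13 of them lower, against 8.72% of all genes, 4.14% lower). The adjusted p of Vmn1r-ps79 was then 0.111, and its difference was -1.35. Without both arrays numbered 3 the blocked adjusted p was 0.0802, with a difference of -1.25.

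The median difference over all genes varied with the signal. In the lowest of the 5 signal bins of all genes the median difference was -0.08 and 84.5% of genes were lower in TGF-β3, while in the 2 highest bins the medians were 0.12 and 0.08 and 11.3% and 11.9% were lower. After quantile normalization the medians of all 5 bins lay between -0.004 and 0.007. Bin medians near 0 largely follow from that procedure, and the cause of the shift was not tested. With the normalized values there were 3 members at an unadjusted p under 0.05 in limma, all lower (3.37% of all genes, 1.63% lower). The Vmn1r median difference was -0.03, with 84 of 125 members lower (67.2%, against 49.7% of all genes). All TGF-β3 values lay below all vehicle values in 5 members (4.07% of all genes) and above in 7 (4.21%). On the normalized values the array medians of the family were 3.99, 4.09 and 4.05 in TGF-β3 and 4.03, 4.10 and 4.11 in vehicle.

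**Figure D3:**
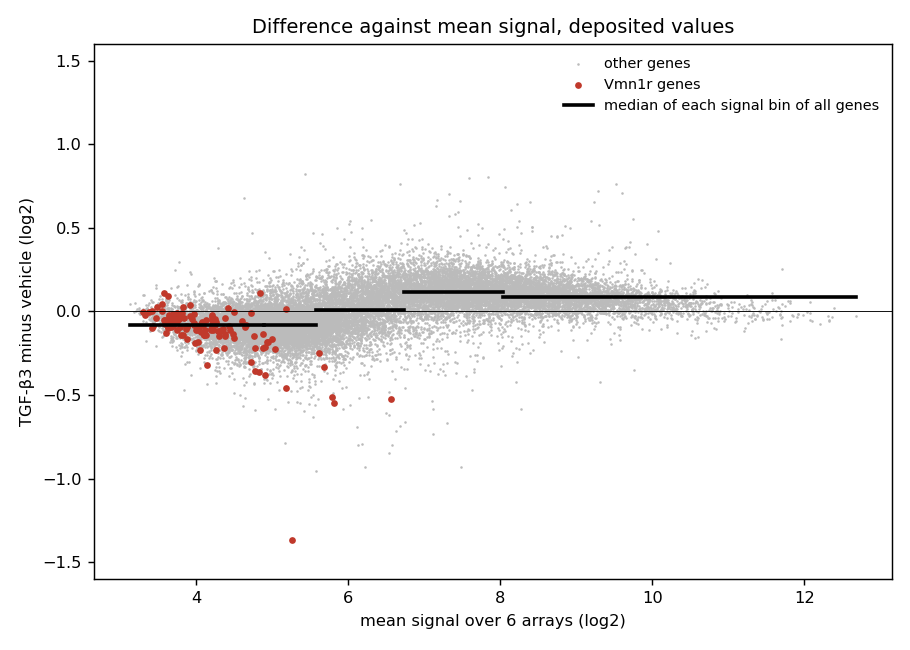
Difference of TGF-β3 minus vehicle (log2) against the mean signal over 6 arrays (log2), for Vmn1r genes (red) and other genes (grey), with the median difference of each of 5 signal bins of all genes (black bars). The bars lie at -0.08 in the 2 lowest bins and at 0.12 and 0.08 in the 2 highest, and Vmn1r-ps79 is the lowest point of the plot, at -1.37.

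Within the family the difference grew with the signal. The 25 members of lowest mean had a median difference of -0.04 with 19 lower, and the 25 of highest mean -0.22 with 23 lower. After quantile normalization these medians were -0.02 and -0.14, so the bright members stayed lower in the median after the arrays were given a common distribution. Across the 125 members the Pearson correlation of mean signal with difference was -0.61, and -0.70 without Vmn1r-ps79. This correlation is across genes that share the same 6 arrays, and genes are not independent replicates. Of the 24 members with more than 1 probe set, 11 had probe sets that all differed in 1 direction.

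The shift was uneven over the sample numbers. The median Vmn1r difference was -0.03 between the arrays numbered 1, -0.05 between those numbered 2 and -0.17 between those numbered 3, with 77, 96 and 119 of the 125 members lower. Without vehicle array 3 the median difference was -0.05 and 75.2% of members were lower, and without vehicle array 1 the median was -0.14 and 91.2% were lower. The median was thus negative with and without vehicle array 3, and smaller in size without it.

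Most genes of 4 other sensory receptor families also had lower TGF-β3 means on the deposited values. Of the 71 Vmn2r genes, the type 2 vomeronasal receptors, 88.7% were lower in TGF-β3 with a median difference of -0.12. Of the 1003 Olfr genes, the odorant receptors, 92.6% were lower with a median of -0.12. The 34 bitter taste receptor genes (Tas2r) had 91.2% lower and -0.10, and the 13 trace amine-associated receptor genes (Taar) 84.6% and -0.06. In each of these families the pair numbered 3 had the most negative median, from -0.16 to -0.26. At an unadjusted p under 0.05 there were 9 Vmn2r (12.7%), 73 Olfr (7.28%), 1 Tas2r (2.94%) and 0 Taar genes (0%), against 5.16% of all genes. Whether the Vmn1r genes differ from these families was not tested. After quantile normalization the medians were -0.05 for Vmn2r, -0.05 for Olfr, -0.04 for Tas2r and 0.01 for Taar, of which 38.5% were then lower.

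**Figure D4:**
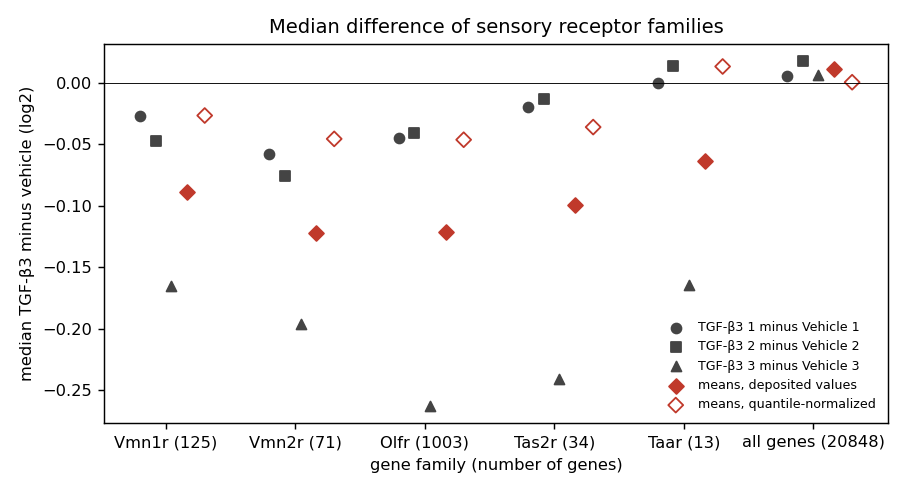
Median difference of TGF-β3 minus vehicle (log2) over the genes of each receptor family and over all genes, for each same-numbered pair of arrays (black symbols), for the group means on the deposited values (filled diamonds) and after quantile normalization (open diamonds). For Vmn1r the pairs lie at -0.03, -0.05 and -0.17, and the group means at -0.09 as deposited and -0.03 after normalization.

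Genes of a broad list for vomeronasal and olfactory signalling did not pass the test. The list was not limited to genes that neurons use with the Vmn1r receptors. Of 26 measured genes, 0 passed in limma, as did 0 of all 20848 genes. Of the 26, 6 were higher and 20 lower, with a median difference of -0.07. Over all genes 47.2% were lower, and in the lowest signal bin 84.5%. The channel gene Trpc2 had a difference of 0.01 (SE 0.08) at a mean signal of 6.05, and the G protein gene Gnai2, which many cell types express, 0.03 (SE 0.08) at 10.51. Omp, the marker of mature olfactory neurons, differed by -0.17 (SE 0.15), and the receptor transporter gene Rtp2 by -0.21 (SE 0.13). Meis2, a transcription factor gene also used in other tissues, differed by 0.27 (SE 0.10). Of these 26 genes, 12 had signals above the Vmn1r 95th percentile on every array.

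The cell type markers set the family beside markers of epithelium and of cell types that the labels do not name. Of 12 epithelial markers, 11 were above the highest Vmn1r signal on all 6 arrays, and the median signal of the 12 was 10.03. The exception was Krt19, with a mean of 4.92. Of 10 markers of olfactory and vomeronasal neurons, 3 were above the Vmn1r 95th percentile on all arrays and 0 above the highest Vmn1r signal. The mean of that list was 5.19 to 5.28 on the TGF-β3 arrays and 5.31 to 5.39 on the vehicle arrays. In it 9 of 10 genes were lower in TGF-β3, where 84.5% of all genes in the lowest signal bin were lower. For the epithelial, macrophage, fibroblast, endothelial and adipocyte lists the list means of the groups overlapped. For macrophage markers 2 of 5 were above the 95th percentile on all arrays, for fibroblast markers 3 of 5, and for endothelial and adipocyte markers 0 of 4 and 0 of 3. Of these 4 lists, only the fibroblast marker Col1a1, with a mean of 9.14, was above the highest Vmn1r signal on all arrays. None of these 39 markers passed in limma, where 0 of all 20848 genes passed.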

How the data were processed

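Total RNA of 6 EpH4 samples was labelled and hybridised to Affymetrix whole-transcript mouse gene arrays, version 1.1. The authors deposited 1 table of log2 signals for 241576 probe sets, made with RMA in Affymetrix Power Tools per the submitters' processing notes; version, build and annotation are not given in the sources used here. Values from 2.96 to 13.07 show the log2 scale. Of the probe sets, 213361 had 1 gene symbol in the platform's probe table, 5107 had several and 23108 had none there; the last 2 kinds entered no gene value. Outdated symbols were updated through the RefSeq gene table (2354 of 20893; 18496 were current and 43 were kept as given), and probe sets were averaged per gene and array (20848 genes, no filter on low signal). No value was missing. The number of arrays limits the precision.

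TGF-β3 was compared with vehicle in limma 3.58.1 (R 4.3.3; lmFit and eBayes over all genes, no block), with Benjamini-Hochberg adjustment across the 20848 genes and a threshold of 0.05. SE and 95% intervals come from this fit and take no account of the sample number. In the median over members the interval reached 0.20 to either side, and 0.18 with the block. The labels number the 3 samples of a group and do not say which cultures they came from, so p-values measure the spread between these samples. Besides the number in the titles, the labels hold a second number. Ordered by it, each TGF-β3 sample comes directly after the vehicle sample of the same title number. What the second number stands for is not known here. The members and lists were chosen with earlier results of these data known. Named members were the 6 of highest and 6 of lowest mean, the 6 largest positive and 6 largest negative differences, the 4 of widest spread, Vmn1r-ps79, Vmn1r49, Vmn1r85 and Vmn1r89; other members are named for an unadjusted p under 0.05, as neighbours or as the genes most alike in pattern. Same-numbered samples were taken as pairs because their deviations from the group means correlated at 0.62, 0.41 and 0.22 over all genes (0.68, 0.58 and 0.16 over the Vmn1r genes). Samples of unlike number correlated at -0.49 to 0.17 over all genes and -0.67 to 0.26 over the Vmn1r genes. The 0.26 was TGF-β3 2 with vehicle 3, above the 0.16 of the pair numbered 3, so that pair is less certain. No 2 arrays were duplicates (SD of the difference over genes 0.12 to 0.33). The script was tested on simulated data. Alternatives were the block, quantile normalization, median centring, other summaries of probe sets, a filter on low signal, eBayes options, array weights and leaving out arrays. Python 3.11.15 and pandas 2.3.3 made the tables and matplotlib 3.10.9 the figures.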

Additional observations from a re-analysis of the deposited data

How the results depend on the processing

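The members past the adjusted threshold numbered 0 of 125 with all arrays and no block, 1 with the replicate block (Vmn1r-ps79), and 0 to 5 with the block and both arrays of 1 sample number left out. Those calls were Vmn1r-ps79, Vmn1r174 and Vmn1r193 without the arrays numbered 1, and Vmn1r-ps79, Vmn1r191, Vmn1r193, Vmn1r213 and Vmn1r44 without those numbered 2. These fits hold 2 arrays per group and called 122 and 129 of all genes. The 9 members with an unadjusted p under 0.05 (7.2%, against 5.16% of all genes) became 19 with the replicate block (15.2% of members, 12.2% of all genes), 3 after quantile normalization (2.4% and 3.37%), 14 with both (11.2% and 8.72%), 1 and 2 with the median and the brightest probe set of each gene (0.8% and 1.6% of members, 4.76% and 3.44% of all genes), 2 of 180 with each probe set alone (1.11%, against 4.18% of all probe sets), 20 with array weights (16% of members, 14.8% of all genes), and 3 of the 8 members left among 15636 genes without those of lowest signal (5.01% of those genes). With the block and both arrays numbered 1, 2 or 3 left out they numbered 22, 14 and 14 (17.6%, 11.2% and 11.2% of members, against 12.9%, 8.47% and 9.39% of all genes). They numbered 1 to 27 when 1 array was left out. The median difference of -0.089 was -0.487 over those 8 members and lay between -0.139 and -0.045 when arrays were left out. The share of members lower in TGF-β3 (91.2%) was 67.2% after quantile normalization, with or without the block, and 72.8% to 93.6% when arrays were left out. The array median of the family was 4.08 on TGF-β3 1 with the brightest probe set and 4.11 on vehicle 3 after quantile normalization; under the other alternatives it moved by less than the SD of the 3 array medians of its own group. For Vmn1r-ps79 the difference was -1.72 to -1.16 over 18 alternatives, past the threshold in 3 of them, with adjusted p from 3.21e-19 to 0.997 in limma. The lowest of these comes from 2 arrays per group, where limma's spread is taken almost wholly from all genes. Of 398 differences of named members under alternatives, 4 moved by more than the pooled SD and 34 had the other sign. The cause of these moves was not tested. With 3 arrays per group the 95% interval of a member reached 0.20 to either side in the median, against 0.22 over all genes.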
